A study of Rattus norvegicus with 8 samples.

Results

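Prostaglandin synthase and receptor genes, 10 genes of 14506 measured, were followed in heart muscle cells given extra miR-222. The genes were picked by name and each was represented by its brightest probe set by mean over the 8 arrays, among the probe sets that the array annotation pairs with that gene alone. All 10 genes had such a probe set. The cells were primary ventricular cardiomyocytes of newborn rats in short-term culture, which had received either a precursor of miR-222 or a scrambled control precursor, at 0.4 µM each, 48 h before RNA was taken. Each group held 4 arrays. Both groups received the transfection reagent Lipofectamine RNAiMAX and a synthetic RNA, and no untransfected arm enters the comparison, so an effect of the scrambled RNA is part of every difference. The preparation is a primary culture, in which cells other than cardiomyocytes can persist. Strain, sex and the number of litters are not given in the labels used here, and no label states that the replicates are separate cultures, so that the p-values refer to the spread among these 8 arrays, part of which may be technical.

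Prostaglandins are short-lived lipid signals made from arachidonic acid. Phospholipases release the acid from membranes, a cyclooxygenase turns it into a common intermediate, and terminal synthases convert this into prostaglandin E, D or F, prostacyclin or thromboxane, each of which acts on G protein-coupled receptors near its source. In the heart, cyclooxygenase products act on vessel tone, on the response to injury and on the growth of cardiomyocytes, for which the prostaglandin F receptor is best known.

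The mature microRNA of the miR-222 gene and its relative miR-221 are shown because they share the seed, bases 2 to 8 in capitals, through which a microRNA pairs with its targets. Sequences are those of RefSeq on build GRCr8, on the plus strand. The sequence of the transfected precursor itself was not used here.
rno-miR-222-3p, chrX:6022682-6022702: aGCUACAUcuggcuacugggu
rno-miR-221-3p, chrX:6023246-6023268: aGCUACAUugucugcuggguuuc

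Intensities had array medians of 7.66 to 7.77 on the log2 scale, and arrays correlated at 0.989 to 0.993 within groups and 0.983 to 0.989 between them. All 12 listed cardiomyocyte markers were bright, the dimmest, Ryr2, having a mean of 12.26 log2 units; 4 of them were lower with miR-222, as given with the other markers. Of 14506 genes, 24.7% passed the test in either direction, 13.0% lower and 11.7% higher with miR-222. The test was limma's, with p-values adjusted by the method of Benjamini and Hochberg over all probe sets and a threshold of 0.05.

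Both cyclooxygenase genes and the prostaglandin F receptor gene were lower with miR-222, while none of the other 7 genes passed the test. Ptgs2 fell 2.41-fold, Ptgfr 1.60-fold and Ptgs1 1.34-fold. Of the 10 genes, 3 were lower (30.0%, beside 13.0% of all genes), 0 were higher (beside 11.7%) and 7 did not pass in limma. At an unadjusted p under 0.05 the counts were 4 lower and 1 higher, and an exact permutation test over the 8 arrays gave 3 lower and 0 higher. With 4 arrays per group the exact test passes 0.05 only where the groups do not overlap. The 4 miR-222 values lay below all 4 control values in the same 3 genes and above them in none; over all genes the groups did not overlap in 33.3%, with 17.0% lower and 16.4% higher. The share called in either direction, 30.0%, was near the 24.7% of all genes, and the median difference of the 10 genes was -0.02 beside 0.01 over all genes.

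**Figure D1:**
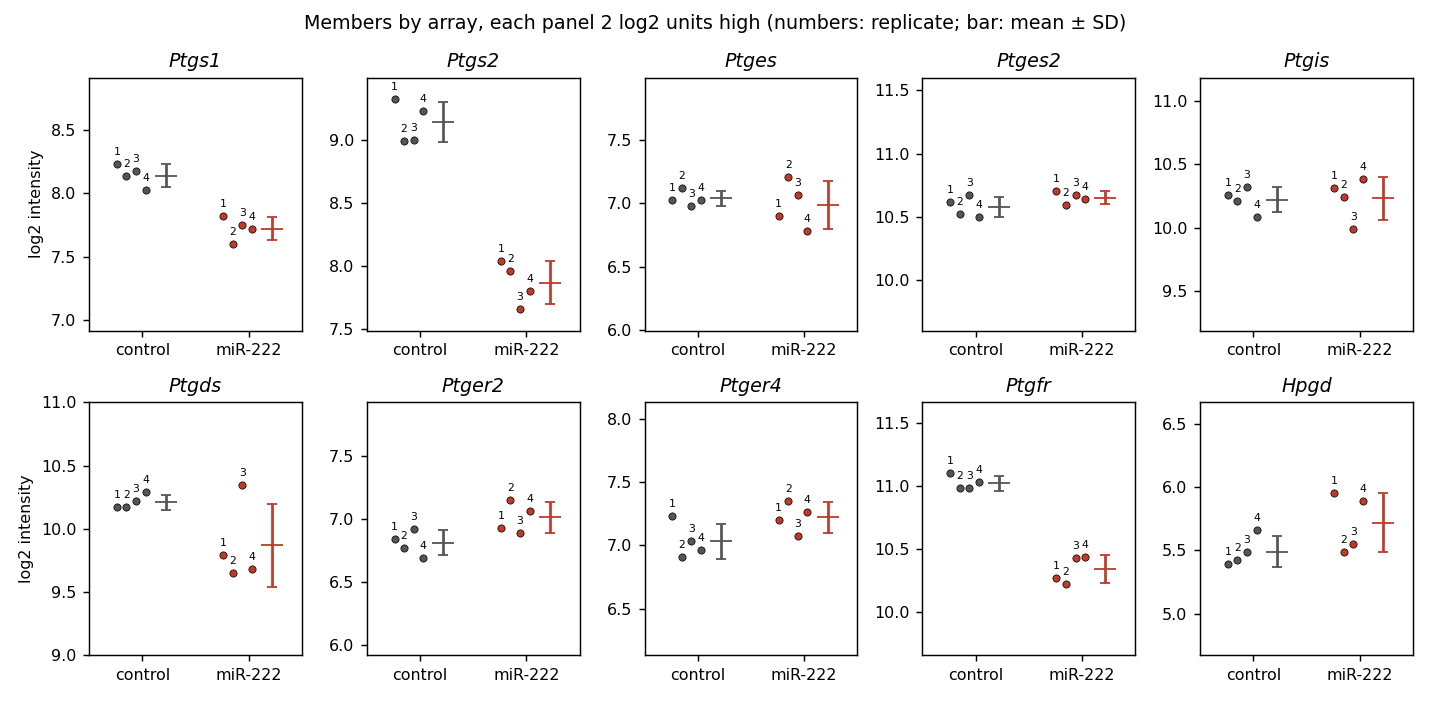
Log2 intensity of each of the 10 genes on each array, control in grey and miR-222 in red, with the replicate number above each point and the mean and SD (n = 4) as a bar; every panel spans the same height. Ptgs1, Ptgs2 and Ptgfr show 2 separate groups of points, whereas the groups overlap in the other 7 genes.

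Ptgs2 encodes the inducible cyclooxygenase, which is low in resting cells and rises with growth factors, cytokines and stress. Its probe set 10764551 measured 9.32, 8.99, 9.00 and 9.23 log2 units in control replicates 1 to 4. With miR-222 it measured 8.04, 7.96, 7.66 and 7.80. All 4 miR-222 arrays were low, and the highest of them lay 0.95 log2 units below the lowest control array. The means were 9.14 ± 0.16 and 7.87 ± 0.17 (SD, n = 4 each), a log2 difference of -1.27 (SE 0.11, limma adjusted p = 2.12e-04). The 95% interval of the fold was 2.03 to 2.86. Ptgs2 ranked 12 from the lowest difference among the 14506 genes, and with any single array left out its difference stayed between -1.33 and -1.20 with adjusted p up to 0.00136.

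Ptgs1 encodes the other cyclooxygenase, which most cells make constantly. Its probe set 10835817 measured 8.23, 8.14, 8.18 and 8.03 log2 units in the control arrays. In the miR-222 arrays it measured 7.82, 7.60, 7.75 and 7.72. The groups did not overlap, with a gap of 0.21 between the lowest control and the highest miR-222 value. The difference was -0.42 (SE 0.06, 95% interval -0.57 to -0.28, limma adjusted p = 0.00272), and it lay between -0.46 and -0.38 with any single array left out.

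The log2 signals of the 2 cyclooxygenase genes did not fall by the same amount. Set within each array as Ptgs2 minus Ptgs1 and centred on the control mean, the log2 difference was 0.10, -0.14, -0.17 and 0.21 in the control arrays and -0.77, -0.63, -1.08 and -0.91 in the miR-222 arrays. The fall of the Ptgs2 signal was therefore the greater by 0.85 log2 units, in all 4 miR-222 arrays. With miR-222, Ptgs1 measured 7.60 to 7.82 and Ptgs2 7.66 to 8.04, both near the array medians of 7.66 to 7.77. The fall of either gene may therefore be compressed. The size of the gap is thus not a measure of how unequally the transcripts changed. This pairing was chosen after the values were seen and was given no test.

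The stretches just before the start sites of the 3 lower genes are shown because these genes moved in the same direction and because Ptgs2, an inducible gene, can be set beside Ptgs1, a constant one. Each is the 150 bases upstream of the RefSeq start, build GRCr8, with matches to the motifs named here in capitals.
Ptgs2, chr13:64713913-64714062, plus strand: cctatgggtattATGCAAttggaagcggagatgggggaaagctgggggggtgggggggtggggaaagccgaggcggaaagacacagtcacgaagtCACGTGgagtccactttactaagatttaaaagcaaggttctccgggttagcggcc
Ptgs1, chr3:39981269-39981418, plus strand: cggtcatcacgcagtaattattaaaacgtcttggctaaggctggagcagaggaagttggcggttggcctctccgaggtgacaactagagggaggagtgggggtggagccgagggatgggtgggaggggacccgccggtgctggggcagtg
Ptgfr, chr2:243425624-243425773, minus strand: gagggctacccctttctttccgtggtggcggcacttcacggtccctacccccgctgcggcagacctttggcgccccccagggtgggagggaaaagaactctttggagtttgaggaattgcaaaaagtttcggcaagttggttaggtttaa

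Motifs were searched on both strands over the 250 bases upstream of the start, in the 8 of the 10 genes whose sequence matched by symbol (not Ptges2 and Ptgis) and in all 33469 promoters of the table. In Ptgs2 the capitals mark the E-box CACGTG, held by 5.59% of all promoters, and a C/EBP core, TTGCAT read on the other strand, held by 9.32%; the 2 matches do not overlap. The GC box GGGCGG was present in Ptgs2, upstream of the stretch shown, and in Ptges, Ptgds and Hpgd (30.5% of all promoters). The cAMP response element core TGACG was in Hpgd alone among the 8 (18.2%). The TATA box in the strict form TATAAA was in none of the 8 (12.9% of all promoters). The Ptgs1 and Ptgfr windows held none of these 5 motifs, so the 3 lower genes shared none of them. These matches describe letters in a window and not binding.

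Ptgfr encodes the receptor of prostaglandin F, which signals through Gq and calcium. Its probe set 10834005 measured 11.10, 10.98, 10.98 and 11.03 log2 units in the control arrays. With miR-222 it measured 10.27, 10.22, 10.43 and 10.44. The groups lay 0.53 log2 units apart at their nearest values, and the control arrays were tightly spaced, with an SD of 0.06. The difference was -0.68 (SE 0.06, 95% interval -0.83 to -0.53, limma adjusted p = 3.60e-04), and -0.72 to -0.64 with any single array left out.

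Neither of the prostaglandin E receptor genes among the 10 passed the test, and both had dim probe sets, below the array medians, whose differences may be compressed. Ptger2 encodes EP2, a receptor that raises cyclic AMP. Its values were 6.84, 6.77, 6.92 and 6.69 log2 units in the control arrays and 6.93, 7.15, 6.89 and 7.06 with miR-222. The groups met at a single pair of values, control replicate 3 and miR-222 replicate 3, and the difference of 0.20 (SE 0.07, 95% interval 0.03 to 0.37) did not pass (limma adjusted p = 0.107). The annotation pairs 2 probe sets with Ptger2, 10779553 and 10779584, and they held identical values in every array, so they count as 1 measurement.

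Ptger4 encodes EP4, which also raises cyclic AMP. It measured 7.23, 6.91, 7.03 and 6.96 log2 units in control and 7.20, 7.35, 7.07 and 7.26 with miR-222. Control replicate 1 lay among the miR-222 values, and the difference was 0.19 (SE 0.09, 95% interval -0.01 to 0.39, limma adjusted p = 0.183). Within arrays, Ptgfr minus Ptger4, centred on the control mean, ran from -0.12 to 0.08 in control and from -1.12 to -0.63 with miR-222, and Ptgfr minus Ptger2 from -0.16 to 0.12 and from -1.15 to -0.67. These pairs were chosen with the values known and were given no test, and it is not known whether Ptger2 and Ptger4 stood above background, so the size of the gap is not a measure of how unequally the transcripts changed.

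**Figure D2:**
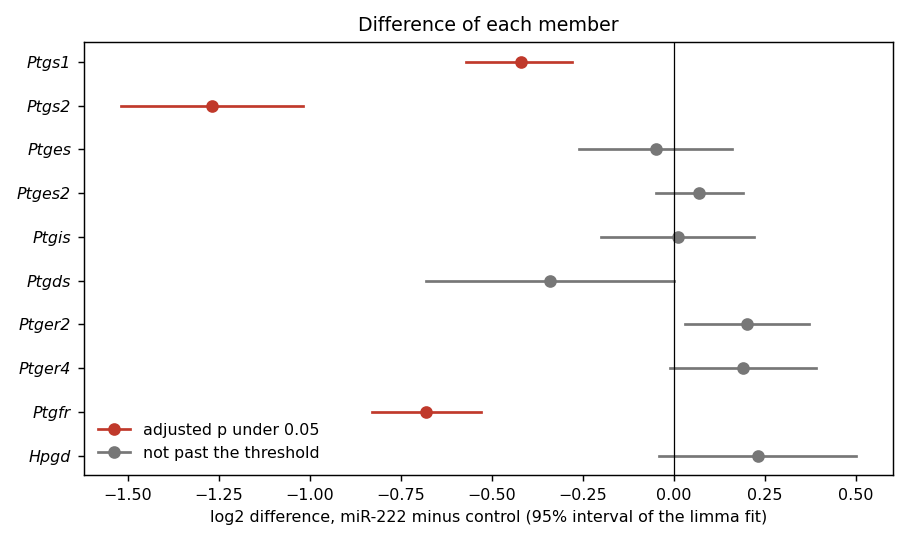
Log2 difference of miR-222 minus control for each of the 10 genes with the 95% interval of the limma fit (n = 4 per group), red where the adjusted p is under 0.05. Ptgs2 at -1.27, Ptgfr at -0.68 and Ptgs1 at -0.42 stand to the left, and the interval of Ptgds starts at -0.68 and ends next to 0.

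The terminal synthases were described next. Ptges encodes the inducible prostaglandin E synthase that is often coupled to the inducible cyclooxygenase. It measured 7.03, 7.12, 6.98 and 7.03 log2 units in control and 6.90, 7.21, 7.07 and 6.78 with miR-222, so that the miR-222 values lay on both sides of the control values. The difference was -0.05 (SE 0.09, 95% interval -0.26 to 0.16, limma adjusted p = 0.771), and it changed sign to 0.02 without miR-222 replicate 4. Its mean of 7.02 lay below the array medians, and a dim probe set may show less than the full size of a change.

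Ptges2 encodes a membrane-bound prostaglandin E synthase that most cells carry. Its values ran from 10.50 to 10.67 in control and from 10.59 to 10.70 with miR-222, and its difference of 0.07 (SE 0.05, 95% interval -0.05 to 0.19) had the narrowest interval of the 10 genes. Ptgis, the prostacyclin synthase gene, measured 10.26, 10.21, 10.32 and 10.08 in control and 10.31, 10.24, 9.99 and 10.38 with miR-222. The lowest and the highest of its 8 values were both miR-222 arrays, and the difference was 0.01 (SE 0.09, 95% interval -0.20 to 0.22, limma adjusted p = 0.961). The sign turned, to -0.02, when arrays were centred on their medians, and to -0.04, -0.02 and -0.04 without control replicate 4, miR-222 replicate 1 and miR-222 replicate 4. A dimmer probe set of Ptgis, 10750966 with a mean of 8.41 log2 units beside 10.22 for the one used, gave 0.07 (SE 0.09).

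Ptgds, the lipocalin-type prostaglandin D synthase gene, was the member whose reading rested on a single array. It measured 10.17, 10.17, 10.22 and 10.29 log2 units in the control arrays. With miR-222 it measured 9.79, 9.65 and 9.68 in replicates 1, 2 and 4, all below control, but 10.35 in replicate 3, above every control array. The difference over all arrays was -0.34 (SE 0.15, limma adjusted p = 0.158), and the SD with miR-222 was 0.33 beside 0.06 in control. Without miR-222 replicate 3 the difference was -0.50 (SE 0.05, limma adjusted p = 0.00134), which made the count of lower genes 4 of 10. Leaving out any of the other 7 arrays gave -0.35 to -0.27 and no call.

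Hpgd encodes the dehydrogenase that begins the breakdown of prostaglandins. Its probe set was dim, with values of 5.39, 5.42, 5.49 and 5.66 log2 units in control and 5.95, 5.49, 5.55 and 5.89 with miR-222. Replicates 1 and 4 of miR-222 lay above all control values and the other two within the control range. The difference was 0.23 (SE 0.12, 95% interval -0.04 to 0.50, limma adjusted p = 0.235). The probe sets of Hpgd, Ptger2, Ptger4 and Ptges lay below the array medians of 7.66 to 7.77, and without detection calls it is not known whether they stood above background.

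**Figure D3:**
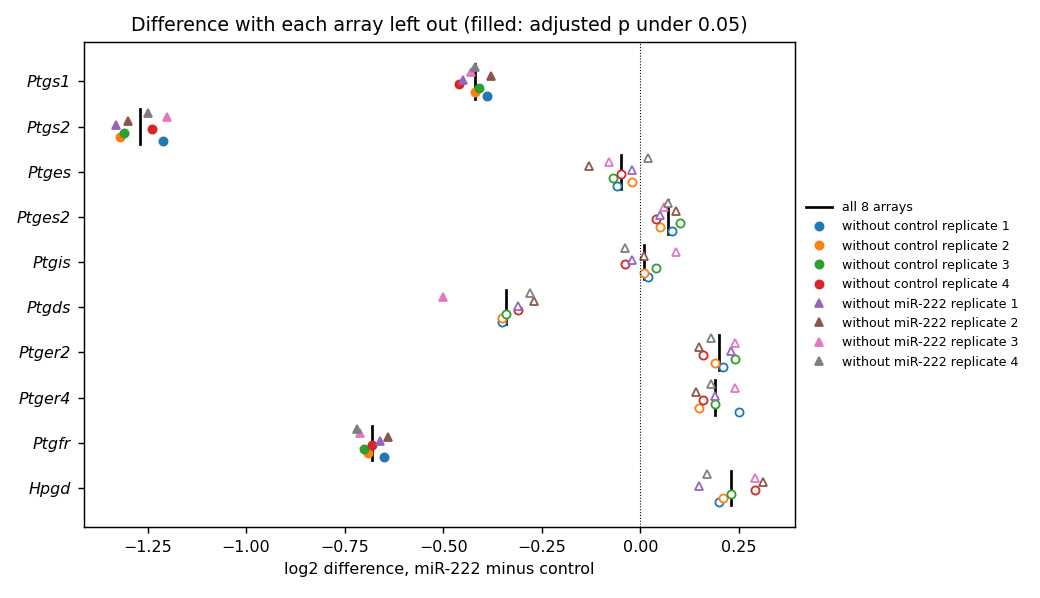
Log2 difference of each of the 10 genes with all 8 arrays (black line) and with each array left out in turn (circles, control arrays; triangles, miR-222 arrays; filled where the adjusted p is under 0.05). Ptgs2, Ptgfr and Ptgs1 stay filled throughout, and Ptgds is filled at -0.50 for the fit without miR-222 replicate 3.

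Other genes of prostanoid metabolism and signalling mostly did not pass the test. Of 17 listed genes 16 were measured, of which 2 were higher, 1 was lower and 13 did not pass (18.8% called beside 24.7% of all genes, median difference 0.09 beside 0.01). Ptgr1, a reductase that inactivates prostaglandins and leukotriene B, fell by 0.31 on the log2 scale (SE 0.04, limma adjusted p = 0.00217), from 11.16 to 11.25 in control to 10.85 to 10.96 with miR-222. Ptges3, the cytosolic prostaglandin E synthase that is also the chaperone p23, was higher by 0.16 (SE 0.04, limma adjusted p = 0.0171), and Prxl2b, a prostaglandin F synthase, by 0.25 (SE 0.05, limma adjusted p = 0.0162). Ptges3 missed the threshold without control replicate 1 or 3 (limma adjusted p = 0.0571 and 0.0511) and when arrays were centred on their medians (0.0883), and Prxl2b without control replicate 1 (0.0532) and with such centring (0.0535). The count of higher genes was accordingly 0 without control replicate 1 (5 at an unadjusted p under 0.05), 1 without control replicate 3 and 5 without miR-222 replicate 3, and the count of lower genes was 2 without miR-222 replicate 2.

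The remaining prostanoid receptors did not pass. Ptger1 and Ptger3, for EP1 and EP3, measured -0.13 (SE 0.06) and 0.08 (SE 0.09). The prostacyclin receptor gene Ptgir measured 0.13 (SE 0.15), the thromboxane receptor gene Tbxa2r -0.16 (SE 0.07) and the prostaglandin D receptor gene Ptgdr2 0.22 (SE 0.09). Ptgfr was thus the receptor gene with a call among the 8 prostanoid receptors measured. It was also bright, with a mean of 10.68 log2 units, beside 8.12 for Ptger3. Ptger1, Ptgir, Tbxa2r and Ptgdr2 had means of 7.09, 7.20, 7.19 and 6.72, below the array medians like Ptger2 and Ptger4. It is not known whether these dim probe sets stood above background, so the single call does not show that the other receptor genes were unchanged. Slco2a1, which carries prostaglandins into cells for breakdown, measured -0.23 (SE 0.10, limma adjusted p = 0.182), and the exporter gene Abcc4 0.14 (SE 0.06, limma adjusted p = 0.158).

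Genes that release or recycle arachidonate changed in both directions. Of 15 measured genes (16 listed), 4 were lower, 3 were higher and 8 did not pass (46.7% called beside 24.7% of all genes, median difference 0.03). The secreted phospholipase genes Pla2g2a and Pla2g5 fell by 0.69 (SE 0.13, limma adjusted p = 0.00814) and 0.43 (SE 0.05, limma adjusted p = 0.00122), while the calcium-independent Pla2g6 rose by 0.38 (SE 0.06, limma adjusted p = 0.00445). Anxa1, which encodes annexin A1, a protein known to hold back phospholipase activity and inflammation, fell most, by 0.99 (SE 0.07, limma adjusted p = 1.31e-04). Its values were 9.55 to 9.65 in control and 8.44 to 8.76 with miR-222, with no overlap. Daglb was lower by 0.23 (SE 0.06, limma adjusted p = 0.0384). With an array left out 3 to 4 genes of this list were lower and 3 to 4 were higher. The count of lower genes was 5 with median centring, quantile normalization, probe sets that have a gene name or the upper 60% of probe sets.

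Mgll, the monoacylglycerol lipase gene, whose enzyme frees arachidonate from an endocannabinoid, rose by 0.61 (SE 0.06, limma adjusted p = 3.38e-04), and Acsl4, which ties free arachidonate to coenzyme A, by 0.48 (SE 0.06, limma adjusted p = 0.00130). Pla2g4a, the cytosolic phospholipase that supplies both cyclooxygenases, measured 0.13 (SE 0.06, limma adjusted p = 0.201). It is also the neighbour of Ptgs2 in the RefSeq gene order, and the neighbour on the other side, Pdc, measured -0.19 (SE 0.10, limma adjusted p = 0.230). The neighbours of Ptgfr, Ifi44l and Gipc2, measured 0.06 (SE 0.07) and -0.07 (SE 0.07), and those of Ptgs1, Mrrf and Or1j13b, 0.19 (SE 0.04, limma adjusted p = 0.00823) and -0.08 (SE 0.09). None of these 6 neighbours was called lower, beside 13.0% of all genes, and 6 genes are too few to read this as a result. Among the neighbours of the other prostaglandin genes, B4galt5 beside Ptgis was lower by 0.42 (SE 0.09, limma adjusted p = 0.0153). Ttc33 beside Ptger4 was higher by 0.31 (SE 0.05, limma adjusted p = 0.00495).

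**Figure D4:**
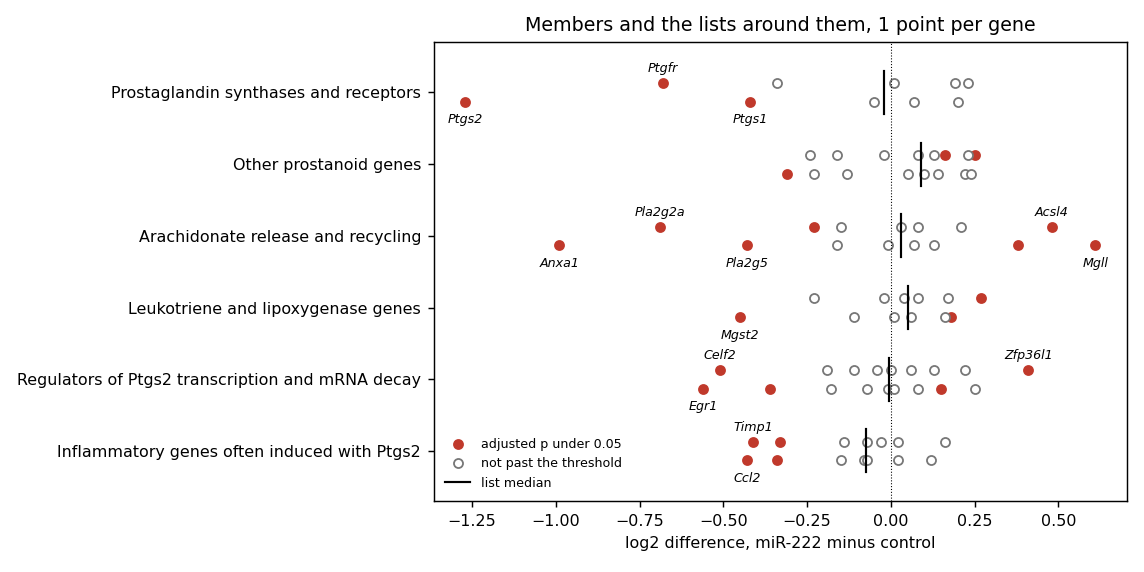
Log2 difference of miR-222 minus control for the 10 genes and for the genes of 5 lists around them, 1 point per gene, red where the adjusted p is under 0.05, with the list median as a line. The medians lie between -0.07 and 0.09, Ptgs2 at -1.27 and Anxa1 at -0.99 are the points farthest to the left, and Mgll at 0.61 is farthest to the right.

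The leukotriene branch, which draws on the same arachidonate, had 12 measured genes, of which 2 were higher, 1 was lower and 9 did not pass (25.0% called beside 24.7% of all genes, median difference 0.05). Alox5ap, the protein that presents arachidonate to 5-lipoxygenase, rose by 0.27 (SE 0.06, limma adjusted p = 0.0112). Mgst2, a leukotriene C synthase, fell by 0.45 (SE 0.08, limma adjusted p = 0.00426). Lta4h, which makes leukotriene B, was higher by 0.18 (SE 0.05, limma adjusted p = 0.0465), and it missed the threshold in 7 of the 8 fits with an array left out, the exception being the fit without control replicate 4 (adjusted p up to 0.120). The count of higher genes was 1 in the fits without control replicate 1 or 3 or any single miR-222 array.

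Among 18 genes of factors that act on Ptgs2 transcription or on the decay of its RNA, 3 were lower, 2 were higher and 13 did not pass (27.8% called beside 24.7% of all genes, median difference 0.00). Egr1, an immediate early transcription factor, fell by 0.56 (SE 0.08, limma adjusted p = 0.00191), and Celf2, which binds the Ptgs2 message and holds back its translation, by 0.51 (SE 0.05, limma adjusted p = 2.49e-04). The decay factors of AU-rich messages split. Zfp36 fell by 0.36 (SE 0.09, limma adjusted p = 0.0253) and Zfp36l1 rose by 0.41 (SE 0.08, limma adjusted p = 0.00882), while Khsrp was higher by 0.15 (SE 0.04, limma adjusted p = 0.0309). The calls of Zfp36 and Khsrp were lost in 6 of the 8 fits with an array left out (adjusted p up to 0.0683 and 0.0788). Over all genes these fits called 2686 to 3404 genes, beside 3580 with all 8 arrays. A call lost in them is therefore not by itself a sign of dependence on 1 array. Zfp36 kept its call without control replicate 3 or miR-222 replicate 2, and so did Khsrp, and 1 gene was higher without any 1 of control replicates 1 and 2 and miR-222 replicates 1, 3 and 4. The NF-kappaB genes Nfkb1 and Rela measured -0.04 (SE 0.05) and 0.01 (SE 0.04), and Creb1, Elavl1 and Cebpb 0.00 (SE 0.05), -0.01 (SE 0.04) and 0.25 (SE 0.13).

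Of 14 measured inflammatory genes that are often induced together with Ptgs2, 4 were lower, 0 were higher in limma and 10 did not pass (28.6% called, all lower, beside 24.7% of all genes called in either direction and 13.0% lower; median difference -0.07), and 0 were higher at an unadjusted p under 0.05 or in the exact permutation test. The lower genes were Timp1 at -0.41 (SE 0.04, limma adjusted p = 5.02e-04), the interleukin-1 receptor gene Il1r1 at -0.34 (SE 0.05, limma adjusted p = 0.00386), the chemokine gene Ccl2 at -0.43 (SE 0.10, limma adjusted p = 0.0209) and the adhesion gene Vcam1 at -0.33 (SE 0.08, limma adjusted p = 0.0216). Il1b, Il6 and Tnf measured 0.16 (SE 0.10), -0.07 (SE 0.09) and -0.14 (SE 0.12). Their means of 6.79, 6.22 and 6.81 log2 units lay below the array medians, and it is not known whether they stood above background. The count of lower genes was 2 without control replicate 1 or 2. Ccl2 missed the threshold in the fits lacking control replicate 1, 2 or 4 (limma adjusted p up to 0.0607), and Vcam1 in those lacking control replicate 1, 2 or 3 or miR-222 replicate 4 (up to 0.0636).

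Markers of cardiomyocytes and of other cells of the heart moved in the same arrays, and their part in the values above was not tested. In such bulk samples fewer cells of a type and less RNA per cell cannot be told apart. The shares called are to be read beside 13.0% of all genes lower and 11.7% higher. Of 12 cardiomyocyte markers 4 were lower and 0 higher in limma (33.3% lower; 0 higher also at an unadjusted p under 0.05 and in the exact permutation test). These were the slow myosin gene Myh7 at -0.61, the titin gene Ttn at -0.36, the natriuretic peptide gene Nppa at -0.20 and the calcium release channel gene Ryr2 at -0.14, while Myh6, Tnnt2 and Actc1 measured -0.01, -0.06 and -0.05. The means of Myh6, Tnnt2 and Actc1, 13.36, 13.33 and 13.67 log2 units, lay near the top of the intensity range. The highest value of any probe set was 16339 on the linear scale. Differences of such bright probe sets may be compressed, so small ones do not show that a marker was unchanged. In 8 of the 12 markers the miR-222 values lay below all control values, as they did in 17.0% of all genes. The summed intensity of the list was 114301 to 117156 in control and 104459 to 106918 with miR-222. Ryr2 missed the threshold with quantile normalization (limma adjusted p = 0.0515) and in 7 of the 8 fits with an array left out, the exception being the fit without miR-222 replicate 2 (up to 0.112). Over the other settings 3 to 8 cardiomyocyte markers were lower, an added check chosen after the data were seen. The count was 8 with a trended prior and 6 with probe sets that have a gene name or in the upper 60% of probe sets. Over all genes these settings called 28.9%, 29.2% and 42.6% in either direction, in that order, beside 24.7% in the main fit. Lower were 2192 and 2190 of 14506 genes and, in the upper 60%, 2190 of 9983.

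Of 12 fibroblast markers 4 were lower (33.3%), namely Lum at -0.89, Thy1 at -0.64, Postn at -0.54 and Ddr2 at -0.35. The count was 2 without control replicate 3, control replicate 4 or miR-222 replicate 1. Of the 8 that did not pass, Tcf21 and Fbln1 were above 0, at 0.11 and 0.16. The rest of the 8 ran from -0.22 for Dcn to -0.04 for Col1a1. The summed intensity of the list was 10422 to 11597 in control and 9016 to 10252 with miR-222. Of 8 smooth muscle and pericyte markers 3 were lower (37.5%) and 1 was higher (12.5%, and 2 without miR-222 replicate 1), with sums of 20935 to 21313 and 17726 to 20339. The lower ones were Tagln at -0.91, Cspg4 at -0.72 and Pdgfrb at -0.49, and the higher one was Abcc9 at 0.41. The 4 that did not pass ran from -0.28 for Cnn1 to 0.16 for Myh11. Of 9 measured endothelial markers Kdr alone was called, lower (11.1%), at -1.51, and the sums were 2170 to 2293 and 1579 to 1700. Without Kdr the sums of the other 8 markers were 1343 to 1453 in control and 1287 to 1388 with miR-222, with differences of -0.13 to 0.04, so that most of the fall of the endothelial sum was Kdr. Of 12 macrophage and leukocyte markers 1 was higher (8.33%), C1qa, with sums of 1489 to 1569 and 1467 to 1701, a count that was 1 without control replicate 3 or 4 and 0 without any of the other 6 arrays, with median centring, with quantile normalization or with a trended prior. Of 6 measured epicardial and mesothelial markers 0 passed in limma (1 higher at an unadjusted p under 0.05, 0 in the exact permutation test), with sums of 1034 to 1099 and 1041 to 1089. Most endothelial, macrophage and leukocyte, and epicardial and mesothelial markers had means below the array medians of 7.66 to 7.77. The dimmest of each list were Erg at 6.56, Ptprc at 5.79 and Wt1 at 6.79 log2 units. It is not known whether such markers stood above background, so small or absent differences in these lists say little about those cells.

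For each of the 3 lower genes the 3 genes with the most similar log2 values over the 8 arrays were listed by Pearson's r. Part of this r comes from the group difference, so r was also taken on the deviations from each group's mean, within groups. They were Cdk6, Abra and Ppm1l for Ptgs2 (r = 0.997, 0.995 and 0.993, within groups 0.95, 0.89 and 0.86), with differences of -0.92, -1.04 and -0.50. For Ptgfr they were Slc25a16, Cnppd1 and Ppig (r = 0.997, 0.994 and 0.994, within groups 0.93, 0.87 and 0.87), at -0.42, -0.16 and -0.26. For Ptgs1 they were Ldah, Parp4 and Sp4 (r = 0.993, 0.990 and 0.990, within groups 0.98, 0.91 and 0.92), at -0.28, -0.23 and -0.21. These genes were picked as the highest of all genes on the same 8 arrays, so their r values are a description. No gene was on more than 1 of these short lists.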

How the data were processed

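Biotin-labelled RNA was hybridised to Affymetrix rat arrays, per the labels. The deposited intensity values, linear and between 0.8 and 16339, were processed by the authors; the summarization and normalization methods were not given in the sources used here. The identifiers pair with the annotation of another Affymetrix rat array than the series text names, and that annotation gave the gene names: of 29170 probe sets 15310 paired with 1 gene, 323 with several and 13537 with none.

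Values were taken as log2 with no pseudocount and compared with limma 3.58.1 (lmFit, eBayes) in R 4.3.3, 2-sided, with p-values adjusted over all probe sets. Exact permutation tests used all 70 splits of the arrays and can give no p below 0.0286. The number of arrays limits the precision. On simulated data of 29170 probe sets with 200 changed, the fit called 86.3% of those set to 1 log2 unit. It called 53.5% of those at 0.5 and 16.2% at 0.25, and 5.13% of its calls were false. In the arrays themselves 24.7% of genes were called, a larger share than was set to change in the simulation. The adjusted threshold depends on that share, so the simulated percentages do not carry over to these arrays. Small differences can still be missed. The files give no scan or slide, so no batch was examined. Figures were drawn with matplotlib 3.10.9.

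The genes and lists were chosen with earlier results of these data known. All 10 genes were named, with up to 6 called genes of each other list by smallest p and the 3 genes most alike to each called one; other genes named were chosen after their values were seen. Replicate numbers follow accession order. Alternatives were 2 further normalizations, a pseudocount of 16, the upper 60% of probe sets, probe sets with a gene name, another prior, array weights, the mean of a gene's probe sets and leaving out each array.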

Additional observations from a re-analysis of the deposited data

Results flagged for a closer look

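Dixon's limit for a single array in a group of 4 was exceeded in 2 of 62 groups, over 31 genes, where chance gives about 1 in 20. Neither was one of the 10 prostaglandin genes. Zfp36 stood at 10.02 log2 units in miR-222 replicate 2, above 9.64 to 9.67 in the other 3 miR-222 arrays (ratio 0.898). Ccl2 stood at 11.45 in miR-222 replicate 3, below 11.80 to 11.87 in the others (ratio 0.840).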

How the results depend on the processing

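Ptgs1, Ptgs2 and Ptgfr kept their direction and their call under all 8 alternative fits and with each array left out. Each had the smallest p that an exact permutation test can give here (0.0286). Any gene whose groups do not overlap has that p, which was 33.3% of all genes, so it adds nothing to the lack of overlap. The count of lower genes among the 10 was 3 under each alternative and 3 to 4 with an array left out. Over all genes 2686 to 3404 were called with an array left out, beside 3580 with all 8 arrays, so fewer calls are general there. The difference of Ptgis turned to -0.02 with arrays centred on their medians and ran from -0.04 to 0.09 with an array left out, and that of Ptges ran from -0.13 to 0.02. Ptgds ran from -0.50 to -0.27. Among other prostanoid genes 4 were higher with array weights, with a trended prior, with probe sets that have a gene name and in the upper 60% of probe sets, and 0 with median centring (limma, 5 at an unadjusted p under 0.05); with an array left out 0 to 5 were higher and 1 to 2 lower. Over all genes 26.9% were called in either direction with array weights, 28.9% with a trended prior and 29.2% with named probe sets. The share was 42.6% in the upper 60%, 21.0% with median centring and 24.8% with quantile normalization, beside 24.7% in the main fit. In the leukotriene list 2 were lower with median centring, quantile normalization or named probe sets, and 1 higher with median centring (1 to 2 with an array left out). Among Ptgs2 regulators 1 was higher with median centring (1 to 2 with an array left out). Of the inflammatory genes 2 to 4 were lower with an array left out. The calls of Lta4h and Khsrp were lost with median centring. Hpgd, Ptger2, Ptger4 and Ptges were not tested in the upper 60%, being too dim. No paired analysis was possible because the labels carry no replicate numbers. Signal over background is unknown here, which limits the dim genes.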
